A study of Mus musculus with 35 samples.

Results

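The genes described here are the organic ion and drug transporters of the mouse kidney, taken as every gene whose symbol starts with Slc22a, Slco, Slc47a, Abcc, Abcb or Abcg. Of 18193 genes on the array with a probe set that names a single gene, 61 were members: 21 in Slc22a, 15 in Slco, 1 in Slc47a, 10 in Abcc, 8 in Abcb and 6 in Abcg. Each was read from its brightest probe set. Of the 61, 47 had a mean signal above a filter on dim probe sets and were tested among 13004 genes. The RNA came from whole kidneys of FVB/NJ mice and was hybridised to 35 Affymetrix arrays. Diabetic mice were of the OVE26 line, which carries a calmodulin transgene driven by an insulin promoter in the pancreatic beta cells and lacks insulin from early life, and were compared with control mice of the same strain and age. Mice of 2 months gave 6 diabetic and 6 control arrays, those of 4 months gave 7 and 4, and those of 8 months 6 and 6. The labels give no sex, and do not say what the controls carried or whether an array held RNA of a single animal, so the p-values measure the spread between arrays.

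Solute carriers of the Slc22a family take up organic anions, organic cations, carnitine and urate. In the proximal tubule, basolateral members bring drugs and metabolic waste from the blood into the cell, and apical carriers and pumps pass them on to the urine. Slco genes encode carriers of larger amphipathic anions such as steroid conjugates, prostaglandins and thyroid hormone, and Slc47a1 exchanges organic cations for protons at the apical membrane. Abcb, Abcc and Abcg genes encode proteins driven by ATP, among them P-glycoprotein, the multidrug resistance proteins and the breast cancer resistance protein, and also mitochondrial, lysosomal and channel-regulating relatives.

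Values are log2 signals as deposited, and differences are diabetic minus control within an age, ± SE of a limma fit over all 35 arrays. A member is called when its p-value, adjusted by Benjamini-Hochberg over the 13004 genes, is under 0.05. In whole-kidney RNA, fewer cells of a type and less RNA per cell cannot be told apart. The 3' beta-actin control probe set exceeded the 5' one by 2.56 log2 units on control 6 of 2 months, and by 0.815 to 1.35 on the other 11 arrays of that age, and at 4 months controls 3 and 4 stood apart from the other arrays in clock genes (Arntl at 7.84 and 8.17, against 5.54 to 6.21). Genes that mark proximal tubule cells were bright in every group. At 8 months 7 of the 16 were called lower and 1 higher, with a mean signal over the 16 of 12.18 to 12.27 in control arrays and 11.77 to 12.18 in diabetic arrays. In the same arrays all 7 tubular injury genes tested and 11 of 12 macrophage genes were called higher, with medians of 2.01 and 1.37, and 0 of 10 endothelial genes were called in limma, with 1 at an unadjusted p under 0.05. Of all genes 9.87% were called higher and 6.95% lower at 8 months. The part of these marker genes in the transporter results was not tested.

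Of the 19 tested Slc22a genes 10 fell at 8 months, and fewer transporters were called at 2 and 4 months. At 2 months 2 of the 47 tested members were called, both lower, or 4.26% of the members, where 2.54% of all genes were called (0.754% higher, 1.78% lower). At 4 months 4 were called, 1 higher and 3 lower, or 8.51%, where 0.969% of all genes were called (0.415% higher, 0.554% lower). At 8 months 17 were called, 3 higher and 14 lower, or 36.2% of the members, where 16.8% of all genes were called (9.87% higher, 6.95% lower). Of the 14 that fell, 10 belonged to Slc22a, whose 19 tested members had a median difference of -0.50 with 16 of 19 below 0, while the median of all genes was -0.00036. In Slco 3 rose and 2 fell of 8 tested, in Abcc and Abcb 1 each fell of 8 and 7, and in Slc47a (1 tested) and Abcg (4 tested) 0 were called in limma and 0 had an unadjusted p under 0.05. The arrays of the groups did not overlap for 3 members at 2 months, all lower, where this held for 1.5% of all genes (0.538% higher, 0.961% lower). They did not overlap for 9 members at 4 months, 3 higher and 6 lower, against 4.81% of all genes (2.37% higher, 2.44% lower), and for 8 members at 8 months, 1 higher and 7 lower, against 9.7% of all genes (5.41% higher, 4.28% lower). These counts do not compare the ages. Tests of a difference in the diabetes effect called 1 member higher and 1 lower between 2 and 8 months, where 3.89% of all genes were called. Between 4 and 8 months 0 members were called in limma, with 6 at an unadjusted p under 0.05, where 0.877% of all genes were called. Between 2 and 4 months 0 members and 0% of all genes were called in limma, with 2 members at an unadjusted p under 0.05. With the replicate number as a block, 4 members were called at 2 months: Abcc3 (-0.64, adjusted p = 0.033) and Abcc4 (0.29, adjusted p = 0.0453, limma) joined the 2. The labels do not say whether same-numbered arrays are pairs. Without controls 3 and 4 of 4 months, 0 members and 5 genes were called at that age in limma, with 6 members at an unadjusted p under 0.05. Of the 4 members called with all arrays, Slco4c1 then stood at 1.38, Abcb1b at -0.73, Abcc9 at -0.58 and Slc22a17 at -0.24.

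**Figure D1:**
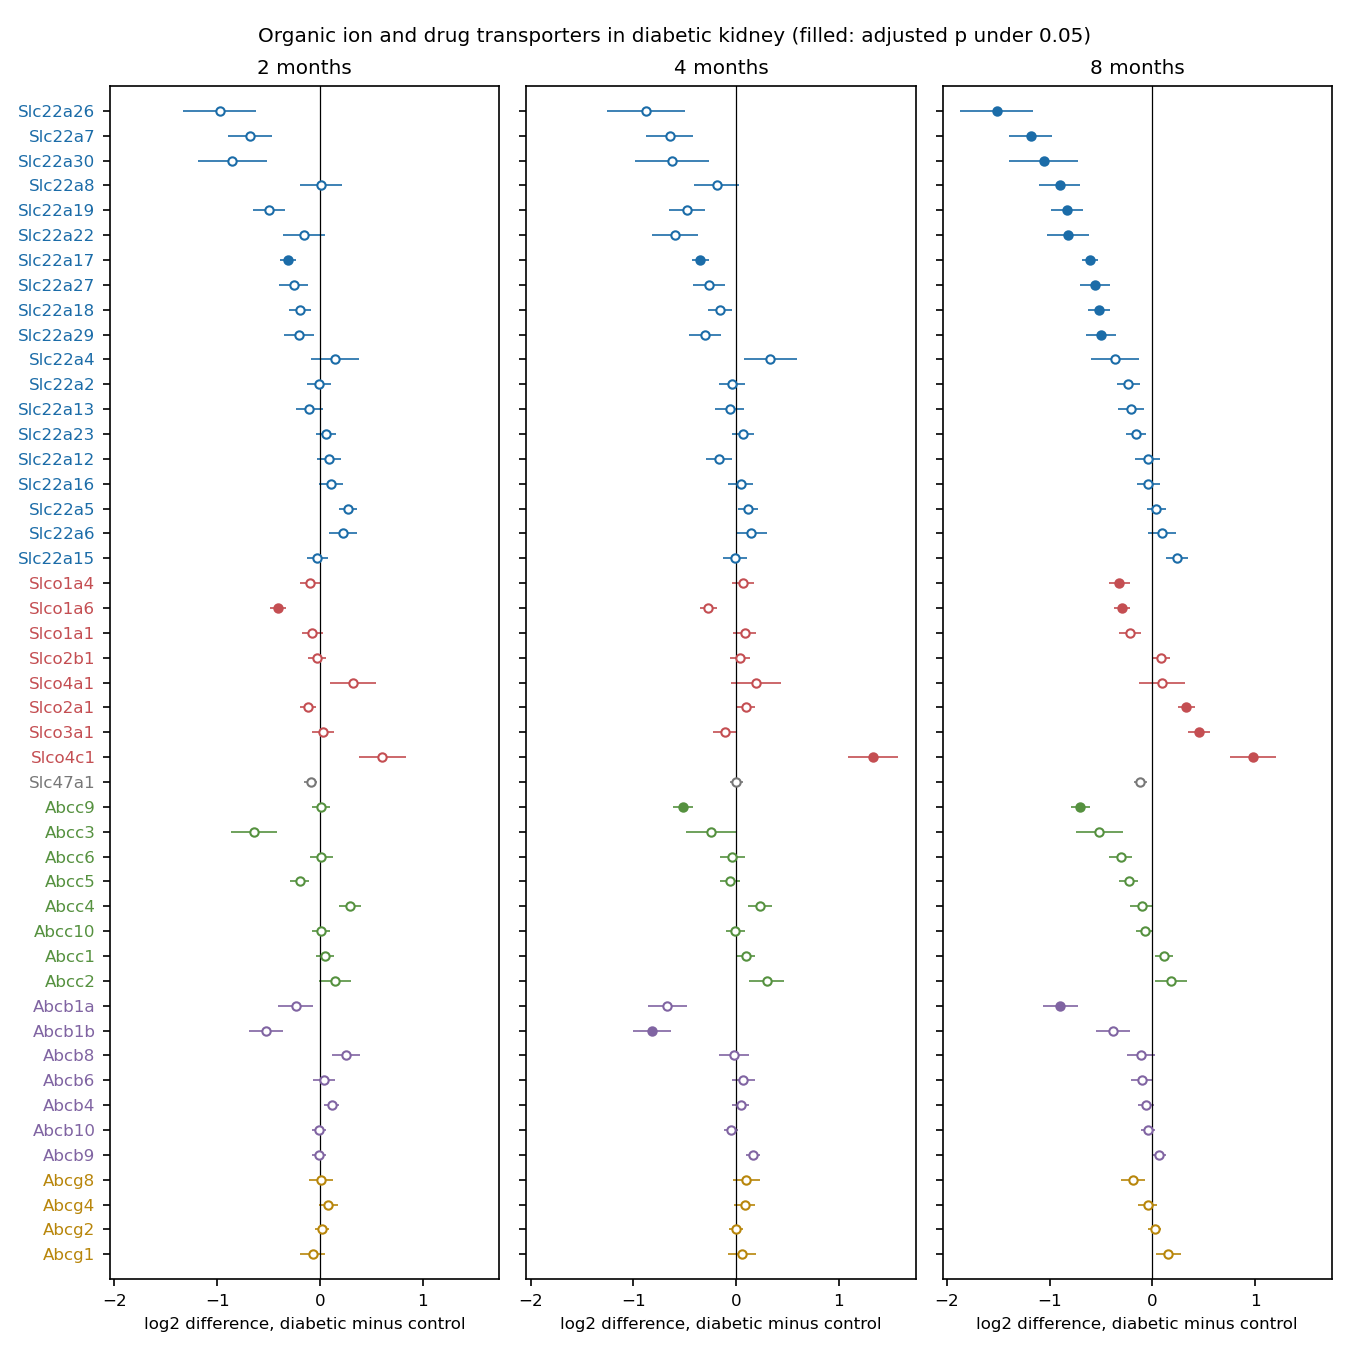
Log2 difference, diabetic minus control, for the 47 tested members at 2, 4 and 8 months, coloured and grouped by family. Points are fitted differences, bars are standard errors, and filled points have an adjusted p under 0.05. The filled points of Slc22a number 1, 1 and 10 at the 3 ages, and all lie left of 0.

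A run of neighbouring Slc22a genes lay on chromosome 19, and other chromosomes and families were not searched for runs. In the RefSeq table of GRCm38.p6, 8 Slc22a genes follow each other there with no other protein-coding gene between them, in the order Slc22a19, Slc22a26, Slc22a27, Slc22a28, Slc22a29, Slc22a30, Slc22a8 and Slc22a6. Slc22a8 encodes OAT3 and Slc22a6 OAT1, the main basolateral organic anion exchangers of the proximal tubule. Slc22a19 encodes the mouse transporter known as Oat5, and the others between are members of the anion transporter branch that is expanded in rodents. Slc22a28 was not analysed here. Of the 7 tested genes 6 fell at 8 months, where 6.95% of all genes were called lower. Slc22a27 and Slc22a29 were read by probe sets that can bind several transcripts, so the 6 may not be separate measurements. The median over the 7 was -0.83, and Slc22a6, at the end of the run, did not fall. Without diabetic arrays 3 and 5 of 8 months, only Slc22a8, Slc22a19 and Slc22a26 of the run stayed called, where 3.56% of all genes were called lower. Of the 12 other Slc22a genes tested 4 fell, with a median of -0.22. Since the run was seen after the values, its count is a description.

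Promoters of the 7 tested genes of the run are shown because 6 of them fell while Slc22a6 was not called. Each is the window from 250 bases before to 50 after the start in RefSeq (GRCm38.p6), written in the direction of transcription. A promoter was found for 49 of the 61 members. Capitals mark GTTAAT or GTTAAC on either strand, core letters of the site of hepatocyte nuclear factor 1, a regulator of tubule transporter genes. These letters were chosen after the sequences were read, and GTTAAC is its own reverse complement.
Slc22a19 (chr19:7711261-7711560, minus strand): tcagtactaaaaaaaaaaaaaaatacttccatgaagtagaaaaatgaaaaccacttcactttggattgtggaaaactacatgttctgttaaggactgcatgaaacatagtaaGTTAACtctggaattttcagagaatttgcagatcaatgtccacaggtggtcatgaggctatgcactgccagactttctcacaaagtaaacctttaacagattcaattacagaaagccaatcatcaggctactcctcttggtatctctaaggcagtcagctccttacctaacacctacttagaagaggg
Slc22a26 (chr19:7802618-7802917, minus strand): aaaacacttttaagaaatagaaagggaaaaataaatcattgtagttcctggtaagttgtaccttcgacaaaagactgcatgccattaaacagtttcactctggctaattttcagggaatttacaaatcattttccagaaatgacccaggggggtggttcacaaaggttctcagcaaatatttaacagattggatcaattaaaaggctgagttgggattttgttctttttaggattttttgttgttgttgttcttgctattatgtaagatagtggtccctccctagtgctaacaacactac
Slc22a27 (chr19:7965978-7966277, minus strand): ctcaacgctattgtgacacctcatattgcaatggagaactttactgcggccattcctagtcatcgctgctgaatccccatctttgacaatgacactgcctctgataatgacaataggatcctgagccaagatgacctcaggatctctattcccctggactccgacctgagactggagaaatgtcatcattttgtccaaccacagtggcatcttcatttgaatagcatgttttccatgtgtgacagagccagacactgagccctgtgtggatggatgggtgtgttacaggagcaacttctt
Slc22a29 (chr19:8218851-8219150, minus strand): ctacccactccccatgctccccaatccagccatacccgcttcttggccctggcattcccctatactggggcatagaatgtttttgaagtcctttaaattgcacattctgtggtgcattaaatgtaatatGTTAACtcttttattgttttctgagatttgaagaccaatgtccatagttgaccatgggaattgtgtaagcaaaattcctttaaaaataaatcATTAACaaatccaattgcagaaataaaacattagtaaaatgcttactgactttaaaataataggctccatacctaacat
Slc22a30 (chr19:8405056-8405355, minus strand): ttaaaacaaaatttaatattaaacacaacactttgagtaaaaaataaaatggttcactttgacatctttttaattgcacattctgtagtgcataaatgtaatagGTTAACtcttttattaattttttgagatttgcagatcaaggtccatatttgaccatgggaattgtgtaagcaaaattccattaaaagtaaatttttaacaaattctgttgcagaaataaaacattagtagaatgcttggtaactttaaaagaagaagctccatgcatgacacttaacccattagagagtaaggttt
Slc22a8 (chr19:8592932-8593231, plus strand): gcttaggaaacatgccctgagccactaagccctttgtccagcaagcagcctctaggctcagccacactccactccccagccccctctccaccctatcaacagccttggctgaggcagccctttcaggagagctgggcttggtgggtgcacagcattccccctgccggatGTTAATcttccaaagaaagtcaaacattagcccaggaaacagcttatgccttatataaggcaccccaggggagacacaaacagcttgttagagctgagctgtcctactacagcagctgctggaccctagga
Slc22a6 (chr19:8617746-8618045, plus strand): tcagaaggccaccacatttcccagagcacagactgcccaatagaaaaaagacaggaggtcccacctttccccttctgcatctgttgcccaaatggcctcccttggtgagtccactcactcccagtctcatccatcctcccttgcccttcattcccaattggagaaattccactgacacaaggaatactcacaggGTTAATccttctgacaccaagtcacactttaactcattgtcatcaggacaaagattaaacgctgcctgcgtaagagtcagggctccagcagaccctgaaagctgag

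A match to either motif stood in 5 of the 7 promoters of the tested run (Slc22a19, Slc22a29, Slc22a30, Slc22a8 and Slc22a6), and in 9.85% of 32851 promoter windows of the table. Of the 59 windows of members 8 had a match, 5 of them in the run. The letters were chosen from these windows, some of which are alike, so the count in the run is a description. GTTAAT alone is in 7.1% and GTTAAC alone in 3.05% of all windows. AGGTCA, a core motif of nuclear receptor sites that was searched too on both strands, stood in 1 of the 7 (Slc22a27) and in 16.3% of all windows. GTTAAT or GTTAAC occurred in members that fell and in Slc22a6, which did not, and were not found in Slc22a26 and Slc22a27, which fell. In a global alignment the windows of Slc22a29 and Slc22a30 shared 72% of their bases and those of Slc22a19 and Slc22a30 64.3%, while Slc22a8 and Slc22a6, side by side at the end of the run, shared 52%. Over all 28 pairs of the run, which include Slc22a28, the share lay between 47.3% and 96%, with a median of 53%. The 96% was that of Slc22a28 and Slc22a30, and among the windows shown the highest was 72%. Windows of the run set against those of members outside Slc22a shared 39.3% to 58.0%, with a median of 50.3% over 240 pairs. The GC content of the Slc22a8 window was 55% and that of the Slc22a27 window 47%, and that of the Slc22a19, Slc22a26, Slc22a29 and Slc22a30 windows lay between 27.7% and 37.7%.

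OAT3 RNA fell at 8 months. Slc22a8 had signals of 12.49, 12.54, 12.31, 12.49, 12.47 and 12.61 in the 8-month control arrays and 11.99, 11.88, 11.16, 12.28, 10.10 and 12.09 in the diabetic arrays. Every diabetic array lay below every control array, and diabetic 5 and diabetic 3 lay far below the other 4. The difference was -0.90 ± 0.20, or 1.87-fold lower (adjusted p = 0.0016). A dimmer probe set of Slc22a8 differed by -1.10 ± 0.21. Without diabetic 3 and 5 the difference was -0.43, with the call kept (adjusted p = 0.00621). At 2 and 4 months Slc22a8 stood at 0.01 ± 0.20 and -0.19 ± 0.22. The change of its diabetes effect from 2 to 8 months, -0.91 ± 0.29, missed the threshold (adjusted p = 0.0636).

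OAT1 RNA was not called at any age. Slc22a6 had 10.95, 11.14, 10.83, 10.95, 11.22 and 11.31 in the 8-month control arrays and 11.05, 11.19, 10.73, 11.18, 11.50 and 11.32 in the diabetic arrays, which overlapped throughout. Its difference was 0.09 ± 0.14 at 8 months (adjusted p = 0.723), 0.15 ± 0.15 at 4 months and 0.23 ± 0.14 at 2 months. Diabetic 5, the lowest array for Slc22a8, was the highest of the 12 for Slc22a6. The log2 difference between Slc22a8 and Slc22a6 within an array had a mean of 1.42 ± 0.12 (SD, n = 6) in controls and 0.42 ± 0.92 (SD, n = 6) in diabetic kidneys at 8 months, without overlap. Diabetic 5 alone stood at -1.40, and the other 5 diabetic arrays lay between 0.43 and 1.11 with a mean of 0.79, still below all controls. Diabetic minus control was -0.99 with diabetic 5 and -0.63 without it. At 2 months the means were 1.28 ± 0.07 (SD, n = 6) and 1.06 ± 0.26 (SD, n = 6), with overlap. This pair was chosen after its values were seen, so no test is given, and the difference shows unequal change of the probe sets, not their relative amounts.

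Slc22a26 had the largest fall of the 47 members at 8 months. Its controls read 6.85, 7.59, 7.45, 7.13, 8.91 and 7.91, and its diabetic arrays 5.75, 6.44, 6.43, 6.41, 5.74 and 5.97. All 6 diabetic arrays lay below all controls, and control 5 stood high. The difference was -1.52 ± 0.35, or 2.86-fold lower (adjusted p = 0.00238), and -2.12 ± 0.45 for a dimmer probe set. Slc22a26 stood at -0.98 ± 0.35 at 2 months (adjusted p = 0.15) and -0.88 ± 0.38 at 4 months (adjusted p = 0.366), neither called. At 4 months its 4 controls read 6.92, 6.04, 8.30 and 8.94, so that controls 3 and 4 were the high ones, and without them the difference was 0.20.

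Slc22a30 at 8 months read 6.23, 6.80, 6.88, 7.20, 8.56 and 7.34 in controls and 5.65, 5.95, 6.05, 6.70, 6.18 and 6.11 in diabetic kidneys. Control 5 was the highest, as for Slc22a26, control 1 lay within the diabetic range, and the groups overlapped. Slc22a30 fell by 1.06 ± 0.33 (adjusted p = 0.0237), and missed the threshold without diabetic 1 or without control 5 (difference -0.78, adjusted p = 0.0864). At 4 months its controls read 6.03, 5.60, 7.32 and 7.65, and without controls 3 and 4 the difference turned from -0.63 ± 0.36 to 0.21, neither called.

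Slc22a19 read 11.72, 11.96, 12.03, 12.02, 12.54 and 12.16 in the 8-month controls and 10.95, 11.19, 11.32, 11.75, 10.71 and 11.51 in diabetic kidneys, with 1 diabetic array above the lowest control. It fell by 0.83 ± 0.16 (adjusted p = 0.000265), after -0.49 ± 0.16 at 2 months (adjusted p = 0.0913) and -0.48 ± 0.17 at 4 months (adjusted p = 0.216). The 2-month difference of Slc22a19 passed with the 3'/5' ratio covariate (-0.59, adjusted p = 0.0175) and with array weights (-0.55, adjusted p = 0.00566). It also passed without both arrays numbered 6 (-0.63, adjusted p = 0.0171). The 4-month difference passed with array weights (-0.45, adjusted p = 0.0327). Slc22a27 ran from 8.13 to 8.45 in controls with a median of 8.38, and from 7.05 to 8.37 in diabetic kidneys with a median of 7.81, a fall of 0.56 ± 0.14 (adjusted p = 0.00579). Slc22a29 ran from 10.08 to 10.42 in controls with a median of 10.30, and from 9.14 to 10.26 in diabetic kidneys with a median of 9.89. Its fall of 0.50 ± 0.14 (adjusted p = 0.0134) was lost without diabetic 3 (-0.37, adjusted p = 0.064). Both were read by probe sets whose suffix marks probes that can bind several transcripts. Relative to the control mean, diabetic arrays 1 to 6 stood at -0.22, -0.74, -1.26, 0.05, -0.94 and -0.26 for Slc22a27. For Slc22a29 they stood at -0.26, -0.53, -1.15, -0.02, -0.85 and -0.22. The profiles were much alike, and whether the probe sets read separate transcripts was not tested. A further probe set, annotated to both Slc22a30 and Slc22a29, was left out of the members. It went from 11.29 ± 0.22 (SD, n = 6) to 10.72 ± 0.48 (SD, n = 6).

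**Figure D2:**
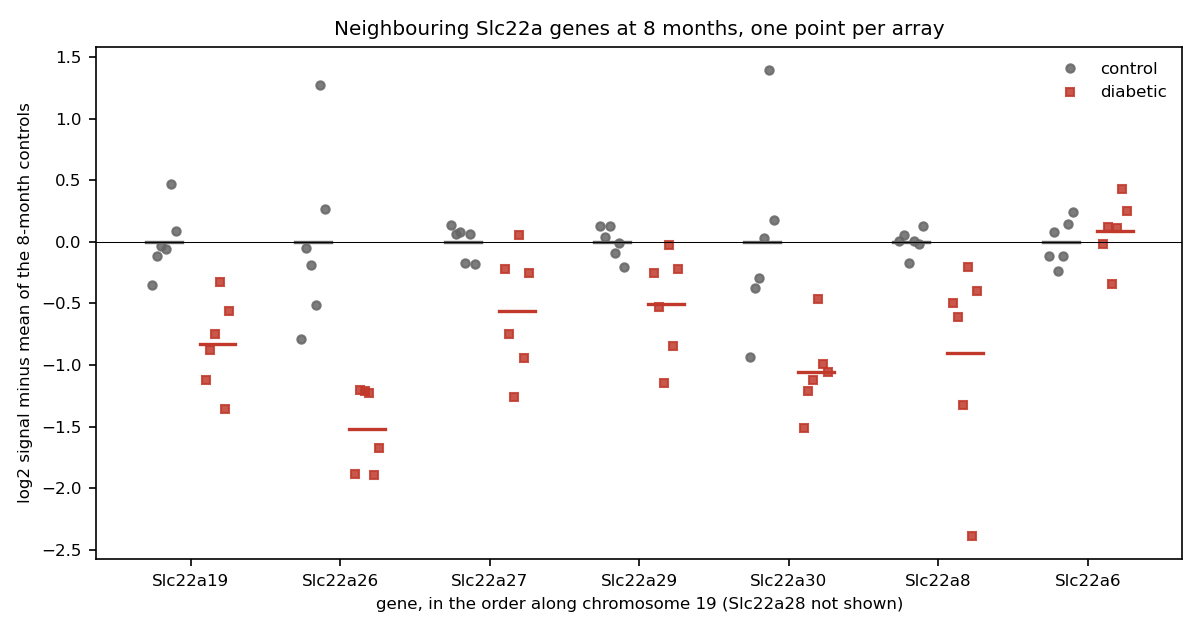
Log2 signal at 8 months of the 7 tested neighbouring Slc22a genes, in their order along chromosome 19, relative to the mean of the 6 controls of each gene. Each point is an array, circles are control and squares diabetic, and lines are group means. From Slc22a19 to Slc22a8 the diabetic means lie between -0.50 and -1.52, and at Slc22a6 the mean lies at 0.09.

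Outside the run, 4 more Slc22a genes fell at 8 months. Slc22a7 encodes OAT2, a carrier of organic anions and of nucleotides such as cyclic GMP. It read 11.87, 12.06, 12.02, 12.30, 12.64 and 12.35 in controls and 11.17, 11.27, 10.89, 11.85, 9.71 and 11.26 in diabetic kidneys, so that all diabetic arrays lay below all controls, diabetic 4 by little. The difference was -1.18 ± 0.21, or 2.27-fold lower (adjusted p = 0.000114), and -0.82 without diabetic 3 and 5 (adjusted p = 0.00123). Slc22a7 was already lower without overlap at 2 months. At 4 months the groups all but touched, with the highest diabetic array at 11.306 and the lowest control at 11.307. At 2 months the controls ran from 12.12 to 12.53 with a median of 12.35 and the diabetic arrays from 11.16 to 12.02 with a median of 11.68, a difference of -0.68 ± 0.21 (adjusted p = 0.0761). At 4 months the controls read 11.61, 11.31, 11.88 and 11.80 and the diabetic arrays ran from 10.35 to 11.31, a difference of -0.64 ± 0.23 (adjusted p = 0.209). Neither early difference was called over all genes. When only the arrays of that age were fitted, or arrays 5 and 6 had a batch term, the 2-month difference passed (adjusted p = 0.0394 and 0.0477).

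Slc22a17, which encodes a receptor for lipocalin 2, was called lower at all 3 ages. Its controls ran from 9.59 to 9.85 with a median of 9.68 at 2 months and its diabetic arrays from 9.30 to 9.49 with a median of 9.36. At 4 months the controls read 8.76, 8.75, 9.08 and 8.86, and the diabetic arrays ran from 8.36 to 8.62. At 8 months the controls read 8.32, 8.19, 8.07, 8.04, 8.08 and 8.15 and the diabetic arrays 7.55, 7.41, 7.39, 7.89, 7.32 and 7.65. The groups did not overlap at any age. The differences were -0.31 ± 0.08 (adjusted p = 0.0207), -0.35 ± 0.08 (adjusted p = 0.0287) and -0.61 ± 0.08 (adjusted p = 7.04e-07). The calls at 2 and 4 months each depended on single arrays. The first was lost without control 2 or control 3 (-0.28, adjusted p = 0.0652 without control 2). It was also lost when only the arrays of 2 months were fitted (adjusted p = 0.0755), and without both arrays numbered 6 (-0.30, adjusted p = 0.0509). The 4-month call was lost without any of 5 of the 11 arrays, among them diabetic 3, 5 and 6 and controls 3 and 4 (-0.27, adjusted p = 0.248 without control 3).

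Slc22a22 encodes a prostaglandin carrier of the kidney cortex. It read 10.63, 10.51, 10.31, 10.13, 10.37 and 10.20 in the 8-month controls and 10.11, 9.93, 9.46, 9.88, 8.51 and 9.32 in diabetic kidneys, without overlap, and fell by 0.82 ± 0.21 (adjusted p = 0.00427). Slc22a18, a carrier gene of an imprinted region, read 12.05, 12.05, 12.01, 12.06, 11.83 and 11.96 in controls and 11.71, 11.63, 11.10, 11.81, 10.88 and 11.74 in diabetic kidneys. The groups stood apart by little, and diabetic 3 and 5 were lowest. It fell by 0.52 ± 0.11 (adjusted p = 0.000792), and by 0.27 without diabetic 3 and 5 (adjusted p = 0.0178).

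The count of Slc22a genes that fell at 8 months rested in part on 2 diabetic arrays. It was 10 in the fit of all arrays and 9 or 10 with each array of that age left out in turn. Without diabetic 3 and 5 together it was 6 (Slc22a7, Slc22a8, Slc22a17, Slc22a18, Slc22a19 and Slc22a26), where 3.56% of all genes were then called lower. Slc22a22 (-0.55), Slc22a27 (-0.29), Slc22a29 (-0.26) and Slc22a30 (-1.06) then missed the threshold, with adjusted p of 0.0755, 0.162, 0.277 and 0.0806.

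The main carriers of organic cations, carnitine and urate were not called at any age. Slc22a2, the basolateral cation carrier OCT2, stood at -0.01 ± 0.12, -0.04 ± 0.12 and -0.23 ± 0.12 at 2, 4 and 8 months, with 8-month medians of 11.22 in controls and 11.03 in diabetic arrays, which overlapped. Slc47a1, the apical cation exchanger MATE1, stood at -0.09 ± 0.06, 0.00 ± 0.07 and -0.12 ± 0.06 and ran from 12.36 to 12.72 over the 12 arrays of 8 months. Slc22a5, the carnitine carrier OCTN2, stood at 0.27 ± 0.09 at 2 months (adjusted p = 0.0986) and 0.04 ± 0.09 at 8 months. Its 2-month difference passed after quantile normalization over all arrays (0.31, adjusted p = 0.0444). Slc22a12, the apical urate exchanger URAT1, stood at 0.09 ± 0.12, -0.17 ± 0.13 and -0.05 ± 0.12. Slc22a4, the ergothioneine carrier OCTN1, was higher without overlap at 4 months, from 7.74 to 7.95 in controls and 8.01 to 8.44 in diabetic kidneys. Its difference of 0.33 ± 0.26 did not pass the test with a spread shared over the ages (adjusted p = 0.721). It passed when only the arrays of 4 months were fitted (adjusted p = 0.0367), and turned to -0.05 with a clock covariate (adjusted p = 0.952). At 8 months it stood at -0.36 ± 0.24. The other 4 tested Slc22a genes, Slc22a13, Slc22a15, Slc22a16 and Slc22a23, lay between -0.21 and 0.24 at 8 months.

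**Figure D3:**
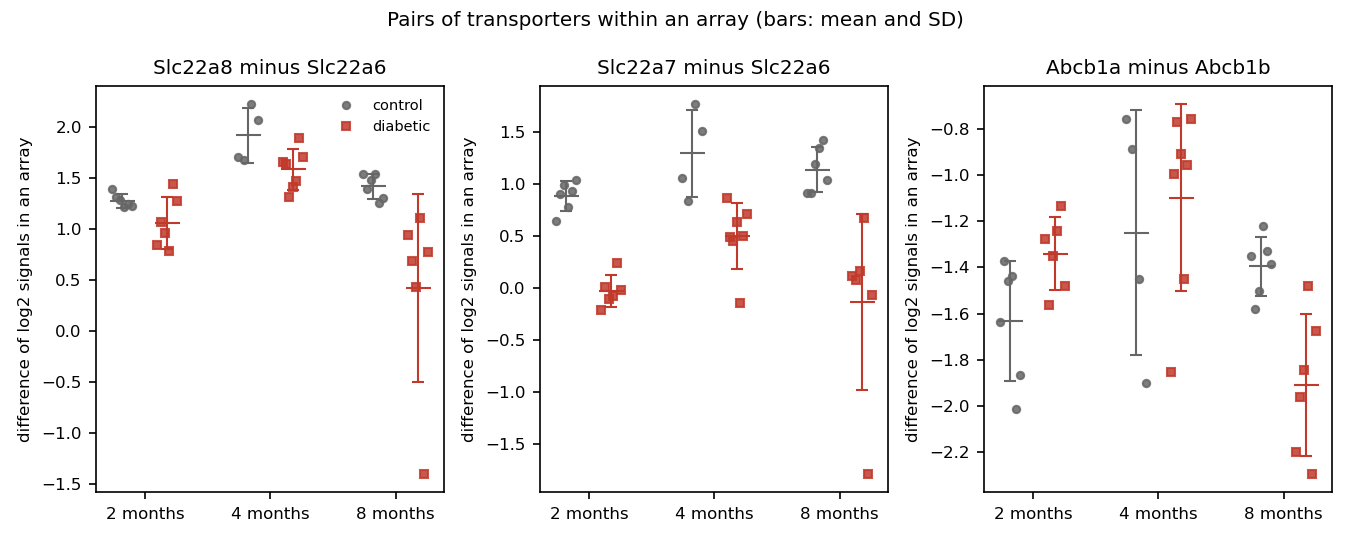
Difference of the log2 signals of Slc22a8 and Slc22a6, Slc22a7 and Slc22a6, and Abcb1a and Abcb1b within each array, by age. Circles are control and squares diabetic arrays, and bars are the mean and SD. Slc22a7 minus Slc22a6 has means of 0.88 in control and -0.03 in diabetic kidneys at 2 months, and 1.14 and -0.13 at 8 months.

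The Slco family went both ways. Slco4c1, a basolateral carrier of digoxin, thyroid hormone and uremic toxins, rose. At 4 months its controls read 4.93, 5.04, 5.15 and 5.00 and its diabetic arrays ran from 5.86 to 7.03 with a median of 6.34, a rise of 1.33 ± 0.24, or 2.52-fold (adjusted p = 0.00412). At 8 months the controls read 6.66, 6.17, 5.98, 6.24, 5.93 and 6.10 and the diabetic arrays 7.21, 7.08, 7.15, 7.29, 7.09 and 7.13, a rise of 0.98 ± 0.22, or 1.97-fold (adjusted p = 0.00206). The groups did not overlap at either age, and the 8-month diabetic arrays lay close together. At 2 months the controls ran from 5.75 to 6.80 and the diabetic arrays from 6.00 to 7.72, a difference of 0.61 ± 0.22 that was not called (adjusted p = 0.156). In a fit with a clock covariate the 2-month difference was 0.77 (adjusted p = 0.0373). A dimmer probe set, itself below the filter, stood at 0.86 ± 0.15 at 4 months and 0.51 ± 0.14 at 8 months. The 4-month controls lay below the filter value of 5.27, so the 4-month fold is measured from a dim signal.

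Slco2a1, the prostaglandin transporter, rose at 8 months. It read 8.64, 8.77, 8.83, 8.89, 9.19 and 8.92 in controls and 9.21, 9.13, 9.33, 9.11, 9.28 and 9.15 in diabetic kidneys, with only control 5 inside the diabetic range. Its difference was 0.33 ± 0.08 (adjusted p = 0.00404), and 0.28 without diabetic 3 and 5, which missed the threshold (adjusted p = 0.0508). Its diabetes effect at 8 months exceeded that at 2 months by 0.45 ± 0.12 (adjusted p = 0.0222), a comparison that called 3.89% of all genes. Of its 3 dimmer probe sets 0 were called at 8 months (0.36, 0.16 and 0.14; adjusted p over probe sets from 0.21 to 0.411, limma). Slco3a1, a widely expressed carrier, rose by 0.45 ± 0.11 (adjusted p = 0.00294), from 8.67, 8.72, 8.85, 8.76, 9.04 and 8.90 to 9.35, 9.30, 9.73, 8.99, 9.28 and 8.99. Both of its dimmer probe sets also rose (0.48 and 0.31).

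Slco1a6, a kidney anion carrier of the Slco1a group, fell at 2 and 8 months. At 2 months the controls ran from 12.31 to 12.55 with a median of 12.40 and the diabetic arrays from 11.91 to 12.10 with a median of 12.04, without overlap, a fall of 0.41 ± 0.08 (adjusted p = 0.00255) that stayed called with each array of that age left out in turn. At 8 months the controls read 12.87, 12.94, 12.91, 13.04, 13.12 and 13.02 and the diabetic arrays 12.73, 12.73, 12.67, 12.90, 12.32 and 12.79, a fall of 0.30 ± 0.08 (adjusted p = 0.00723) with 1 diabetic array above the lowest control. Without diabetic 3 and 5 it stood at -0.20 at 8 months and was not called (adjusted p = 0.108). At 4 months it stood at -0.27 ± 0.09 (adjusted p = 0.141), and at -0.11 without controls 3 and 4. Slco1a4, a carrier of digoxin and bile acids, fell by 0.32 ± 0.10 at 8 months (adjusted p = 0.0211), from a range of 6.18 to 6.55 to 5.81 to 6.42. That call was lost without diabetic 4 or control 2, and without diabetic 3 and 5 together (-0.33, adjusted p = 0.0661). Slco1a1, a close relative, stood at -0.22 ± 0.11 and was not called (adjusted p = 0.169). Slco2b1 and Slco4a1 stood at 0.08 and 0.10 at 8 months and were not called at any age.

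In the Abcc family the single gene called in the fit of all arrays was not a drug pump. Abcc9 encodes a sulfonylurea receptor, the regulatory subunit of ATP-sensitive potassium channels in vascular smooth muscle and pericytes. At 2 months its controls ran from 8.01 to 8.41 and its diabetic arrays from 8.01 to 8.46, with a median of 8.25 in each. At 4 months the controls read 8.23, 8.16, 7.92 and 8.23 and the diabetic arrays ran from 7.45 to 7.83. At 8 months the controls read 8.84, 8.89, 8.87, 8.87, 8.93 and 8.81 and the diabetic arrays 8.12, 8.23, 8.55, 8.18, 7.88 and 8.02. The groups overlapped fully at 2 months and not at all later. The differences were 0.01 ± 0.09, -0.52 ± 0.10 (adjusted p = 0.00436) and -0.70 ± 0.09 (adjusted p = 8.48e-07). Its dimmer probe sets stood at -0.64 ± 0.11 and -0.86 ± 0.18 at 8 months. Abcc9 was the single member whose diabetes effect differed between the ages by an F test (adjusted p = 0.00207), where 2.5% of all genes passed. The effect at 8 months was lower than that at 2 months by 0.71 ± 0.13 (adjusted p = 0.000819).

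The genes of the multidrug resistance proteins of the tubule were not called in the fit of all arrays. Abcc2 and Abcc4, the apical efflux pumps MRP2 and MRP4, stood at 0.18 ± 0.16 and -0.11 ± 0.11 at 8 months. Abcc2 was higher without overlap at 4 months, from 7.31 to 7.52 in controls and 7.55 to 7.95 in diabetic kidneys, a difference of 0.30 ± 0.17 (adjusted p = 0.547). Abcc3, the basolateral pump MRP3, stood at -0.64 ± 0.23, -0.25 ± 0.25 and -0.52 ± 0.23. At 2 months its controls ran from 7.96 to 9.97 with a median of 9.60, and control 6 was the lowest of them. At 8 months the difference was not called (adjusted p = 0.12), and passed with the block, array weights, the 3'/5' ratio covariate or that age alone (-0.59 to -0.50, adjusted p from 0.0225 to 0.0321). Beside the block at 2 months, Abcc3 passed there with a 3'/5' ratio covariate (-0.80, adjusted p = 0.0178). With 1 of the 12 arrays left out in turn, it passed only without control 6, the array with the high 3'/5' ratio (-0.92, adjusted p = 0.00228). Without diabetic 6 the adjusted p was 0.291. It also passed at 2 months with array weights (-0.84, adjusted p = 0.000815) and without both arrays numbered 6 (-0.79, adjusted p = 0.00873). Abcc4 stood at 0.29 ± 0.11 and 0.24 ± 0.12 at 2 and 4 months. Abcc1 stood at 0.11 ± 0.08 at 8 months, and Abcc5, Abcc6 and Abcc10 at -0.23, -0.31 and -0.08, with Abcc6 just above the threshold (adjusted p = 0.0527).

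Abcb1a and Abcb1b, the genes of P-glycoprotein in mice, had negative differences at every age, and in the fit of all arrays each was called at 1 of them. Abcb1a read 7.53, 7.30, 6.90, 7.19, 6.50 and 6.99 in the 8-month controls and 6.28, 5.86, 6.04, 6.82, 5.97 and 6.05 in diabetic kidneys, and fell by 0.90 ± 0.17, or 1.86-fold (adjusted p = 0.000314). Control 5 lay below diabetic 4, and the arrays were otherwise apart. A dimmer probe set gave -0.91 ± 0.15. Abcb1a stood at -0.24 ± 0.17 at 2 months and -0.67 ± 0.19 at 4 months (adjusted p = 0.0787). The 4-month difference passed with the mean of probe sets (-0.70, adjusted p = 0.0266), array weights (adjusted p = 0.00475), a clock covariate (-0.92, adjusted p = 0.00748) or that age alone (adjusted p = 0.0335), and the dimmer probe set passed there too (-0.72, adjusted p = 0.033). Without controls 3 and 4 it stayed negative and was not called (adjusted p = 0.144). Abcb1b fell at 4 months, from 8.02, 8.14, 8.16 and 8.37 in controls to a range of 6.84 to 7.83 with a median of 7.41, a fall of 0.82 ± 0.18 (adjusted p = 0.0144). That call was lost without control 3 or control 4 (adjusted p = 0.104 without control 4). Abcb1b stood at -0.53 ± 0.17 at 2 months (adjusted p = 0.0833) and -0.38 ± 0.17 at 8 months (adjusted p = 0.119). The diabetes effect did not differ between 2 and 8 months by the test for either gene (adjusted p = 0.13 for Abcb1a and 0.805 for Abcb1b).

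Other ABC members were flat or below the threshold. Abcb6, Abcb8 and Abcb10, which encode mitochondrial or porphyrin transporters, stood at -0.10, -0.11 and -0.04 at 8 months, and Abcb4 and Abcb9 at -0.06 and 0.07. Abcg2, the apical efflux pump for urate and drugs, read 11.73 to 11.97 in the 8-month controls and 11.78 to 11.96 in diabetic kidneys. Its differences were 0.02 ± 0.07, -0.00071 ± 0.07 and 0.02 ± 0.07. Abcg1, which exports cholesterol, stood at 0.16 ± 0.12, Abcg4 at -0.04 and Abcg8 at -0.19 at 8 months.

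**Figure D4:**
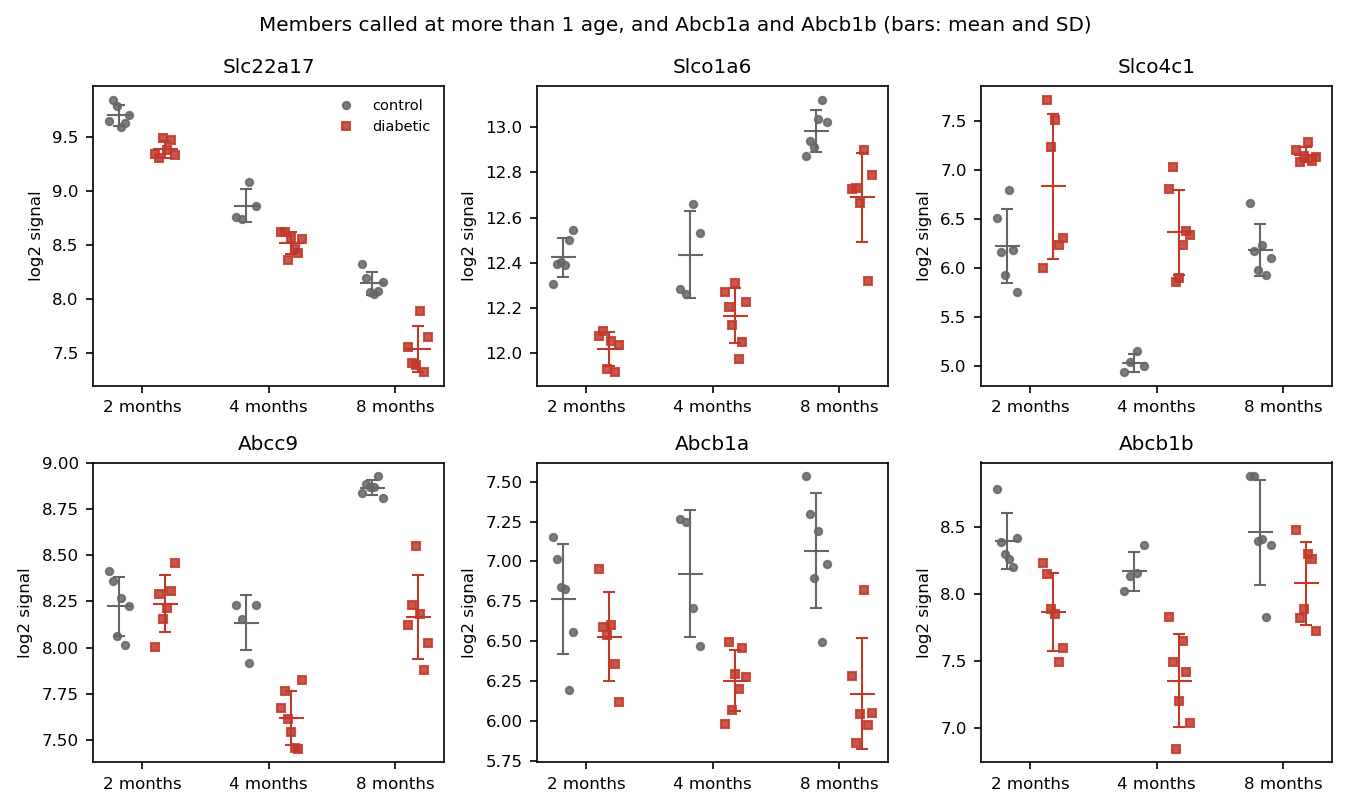
Log2 signal of Slc22a17, Slco1a6, Slco4c1, Abcc9, Abcb1a and Abcb1b on every array at 2, 4 and 8 months. Circles are control and squares diabetic arrays, and bars are the mean and SD. Abcc9 has a median of 8.25 in both groups at 2 months and ranges that do not overlap at 4 and 8 months, and the 6 diabetic arrays of Slco4c1 at 8 months lie between 7.08 and 7.29.

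The diabetic kidneys of 8 months differed among themselves. Of the 14 members that fell, diabetic 5 was the lowest of the 6 diabetic arrays for 9, and diabetic 4 the highest for 10. The mean over the 10 lower Slc22a genes, relative to the control mean, was -0.35 in diabetic 4, -0.69, -0.76 and -0.76 in diabetic 6, 2 and 1, -1.07 in diabetic 3 and -1.47 in diabetic 5. In the controls it lay between -0.16 and 0.34. Diabetic 4 had the highest proximal tubule level of the diabetic arrays (12.18) and the lowest injury level (9.28). Diabetic 5 had the lowest proximal tubule level (11.77), an injury level of 9.91 and a clock gene pattern of its own (Arntl at 7.81 and Dbp at 7.32, where the other 11 arrays of 8 months had 5.31 to 6.97 and 8.14 to 10.88). Diabetic 3 had the highest injury and macrophage levels (11.29 and 10.08). With the difference of Arntl and Dbp as a covariate, all 17 members remained called at 8 months. That fit held a single slope for all ages, and does not test the part of the clock at 8 months. The part of proximal tubule loss, injury and cell infiltration was not tested.

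**Figure D5:**
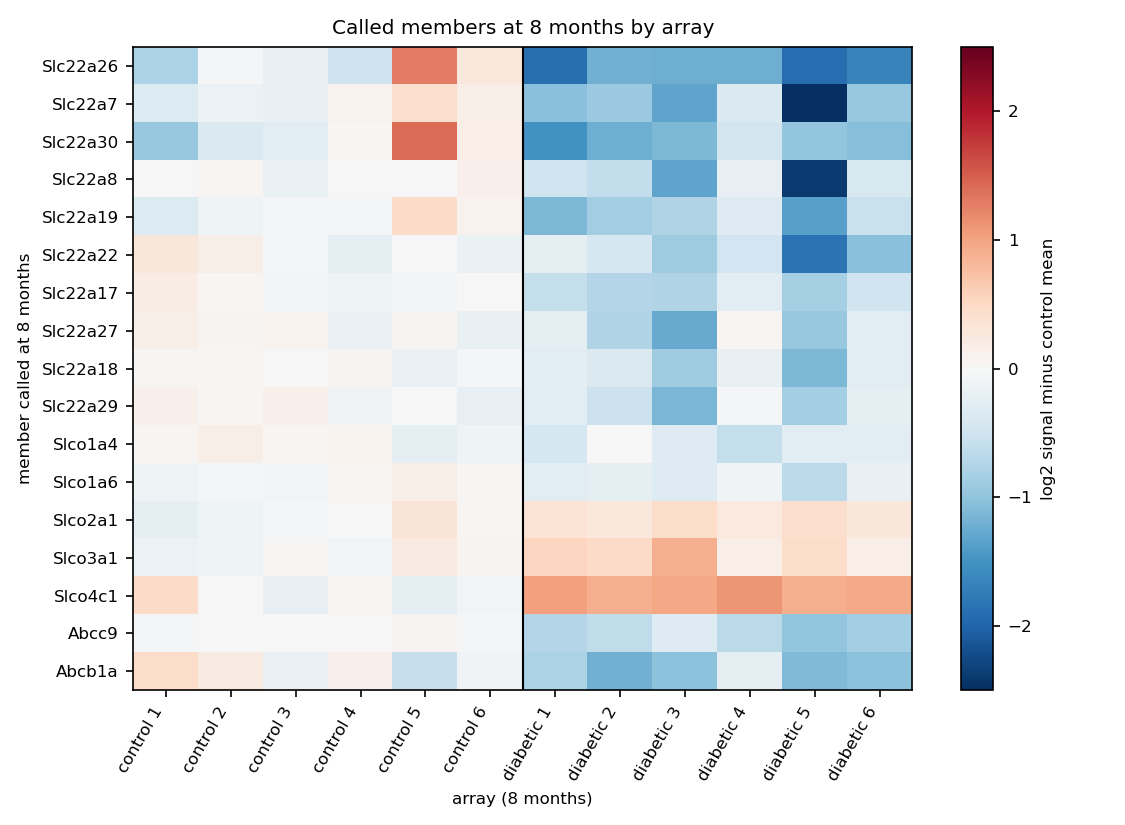
Log2 signal of the 17 members called at 8 months on each of the 12 arrays, relative to the mean of the controls, as colour from blue (lower) to red (higher). Rows are members by family and columns are arrays, with controls to the left of the line. Diabetic 5 has the lowest mean over the lower Slc22a genes (-1.47) and diabetic 4 the mildest (-0.35), while Slco4c1 is red in all 6 diabetic arrays.

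Carriers of organic solutes outside these families were followed as a list. Of 15 tested, 1 fell at 2 months, 1 at 4 months and 2 at 8 months, with an 8-month median of -0.03. Of all genes 2.54%, 0.969% and 16.8% were called at 2, 4 and 8 months. The share of the list was below that of all genes at 8 months, and above it at 2 and 4 months through a single gene. The gene called at every age was Slc15a2, the apical peptide carrier that also takes up beta-lactam drugs (-0.65 ± 0.09, -0.62 ± 0.09 and -0.74 ± 0.09). The other was Slc17a3, an apical urate and organic anion carrier (-0.40 ± 0.12 at 8 months, adjusted p = 0.015). Organic anion uptake by OAT1 and OAT3 is coupled to dicarboxylates inside the cell. Slc13a3, the basolateral sodium-dicarboxylate carrier that supplies them, fell by 0.48 ± 0.13 at 8 months (adjusted p = 0.00778), while of the 7 genes of driving ions and scaffolds 1 other was called, Ezr, the gene for ezrin (0.22 ± 0.07, adjusted p = 0.0236). Atp1b1, a sodium pump subunit, and Pdzk1, an apical scaffold, stood at -0.04 and -0.12 and were not called. Among all genes 16.8% were called at this age.

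Of 16 transcriptional regulators tested, 0 were called at 2 months in limma (2 at an unadjusted p under 0.05), 1 at 4 months and 5 at 8 months, 1 higher and 4 lower, where 16.8% of all genes were called at 8 months. Hnf4a, a nuclear receptor that activates tubule transporter genes, fell by 0.20 ± 0.06 (adjusted p = 0.0222), and the glucocorticoid receptor gene Nr3c1 fell by 0.39 ± 0.08. The estrogen receptor gene Esr1 fell by 0.88 ± 0.12 and the clock output factor gene Tef by 0.42 ± 0.14. Nr1i3, the gene of the constitutive androstane receptor, rose by 0.67 ± 0.12 at 4 months and 0.38 ± 0.11 at 8 months. The oxidative stress regulators Nfe2l2 and Keap1 stood at 0.17 and 0.07 and were not called. In the list of perirenal fat and adrenal markers, 1 of 4 tested was called lower at 4 months (Ucp1, -2.28 ± 0.50) and 2 at 8 months (Ucp1, -2.20 ± 0.46, and Cidea, -2.22 ± 0.52), while Adipoq stood at 0.85 ± 0.83 at 8 months. Of all genes 0.554% were called lower at 4 months and 6.95% at 8 months. The part of attached fat in the transporter results was not tested.

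Between 2 and 8 months 26 members changed in controls, 8 higher and 18 lower, and 35 in diabetic kidneys, 7 higher and 28 lower. Of all genes 63.8% and 66% were called in these comparisons, and the medians over all genes were -0.14 and -0.11. Mean signals of the ages differed as deposited, so age and scaling cannot be told apart. Slc22a17 fell by 1.56 in controls and 1.86 in diabetic kidneys. Abcc9 rose by 0.64 from 2 to 8 months in controls and stood at -0.07 in diabetic kidneys.

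The 14 members below the filter were Abcb11, Abcc8, Abcc12, Abcg3, Abcg5, Slc22a14, Slc22a21, Slco1a5, Slco1b2, Slco1c1, Slco5a1, Slco6b1, Slco6c1 and Slco6d1. Their means over all arrays lay between 3.45 and 5.17, and they include the bile salt pump gene Abcb11 and the liver carrier gene Slco1b2. Genes of these families in the RefSeq table that no probe set named alone, such as Slc22a3 and Slc47a2, were not analysed here. For members with several probe sets, 81 other probe sets by age were compared. In the 13 cases where the member was called, all 13 had the same sign, 8 were called too, and 0 were called in the opposite direction.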

How the data were processed

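Per the labels, Affymetrix arrays were hybridised with RNA of whole kidneys. The deposited values are log2 probe set signals for 45101 probe sets on 35 arrays. Background correction, summarization and normalization: not given in the sources used here. Precision is limited by how many arrays there are. Platform annotation gave 34945 probe sets with 1 gene symbol and 932 with several, which were left out. The brightest probe set stood for a gene, and genes under a mean log2 of 5.27, the 40th percentile, were not tested. Group means were fitted with limma 3.58.1 on R 4.3.3 (the package data.table, version 1.17.8), with 29 residual degrees of freedom, after a run on simulated data with known changes. Named members are those called at any age, the 3 brightest tested of each family, and 18 fixed names, of which 17 were measured. Members and lists were chosen with earlier results of these data known. Same-numbered arrays deviated together at 2 months (r from 0.25 to 0.44 in 6 of 6 pairs) but not at 4 (1 of 4 pairs above 0.1) or 8 months (2 of 6). At 2 months arrays 5 and 6 of both groups also lay apart from arrays 1 to 4. These r values therefore do not show that same-numbered arrays were matched. Promoters were aligned with Biopython 1.88. Alternatives covered normalization, filter, probe set choice, block, array weights, covariates, single ages and left-out arrays.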

Additional observations from a re-analysis of the deposited data

Results flagged for a closer look

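Single arrays stood apart from the rest of their group in 14 of 210 sets of values, 35 named members by 6 groups. Chance alone sets an array apart in about 1 in 20 such sets. Control 6 of 2 months, the array with the high 3'/5' ratio, did so for 4 members: it was lowest for Slc22a4 (6.54, next 8.31), Slc22a19 (11.38, next 12.13) and Abcg2 (11.89, next 12.13) and highest for Slc47a1 (12.88, next 12.70). Diabetic 1 was highest for Slco2a1 at 2 months (9.15, next 8.82), and diabetic 1 of 4 months was highest for Slco2a1 there (8.84, next 8.54) and lowest for Abcb8 (9.37, next 9.48). At 2 months control 1 was highest for Abcb1b (8.79, next 8.42) and diabetic 5 for Slc22a18 (12.32, next 12.11). At 4 months diabetic 5 was lowest for Slc22a7 (10.35, next 10.90) and diabetic 7 for Abcg2 (11.99, next 12.18). At 8 months diabetic 3 was lowest for Slc22a12 (10.59, next 11.17), control 3 was lowest for Slc22a5 (12.11, next 12.26), and control 4 was highest for Slco1a1 (6.58, next 6.24).

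The diabetes effect differed between ages for Abcc9, lower at 8 than at 2 months by a log2 difference of -0.71 (adjusted p = 0.000819, limma), and for Slco2a1, higher at 8 than at 2 months by 0.45 (adjusted p = 0.0222, limma). The F test over the 3 ages called Abcc9 and not Slco2a1 (adjusted p = 0.0668).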

How the results depend on the processing

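The count of members called at 8 months lay between 14 and 20 under the other ways of processing all arrays of that age and between 16 and 19 with 1 array left out. Without diabetic 3 and 5, chosen after seeing the data, it was 10, with 6 lower Slc22a genes and 1182 genes, and Slco1a4, Slco1a6 and Slco2a1 lost their calls beside the 4 Slc22a genes. At 2 months the member count of 2 became 4 with the replicate block, 10 with array weights, 4 with the 3'/5' ratio covariate and 4 with arrays 5 and 6 as a batch term. The count of genes, 330, became 553 with the block, 1296 with weights, 64 in a fit of that age alone and 696 with the batch term. At 4 months the member count of 4 became 2 with the replicate block, 10 with array weights and 0 without controls 3 and 4. The 126 genes became 942 with weights, 358 in a fit of that age alone and 5 without controls 3 and 4. With 1 array left out, members ranged from 1 to 4 at 2 months and from 2 to 4 at 4 months, genes from 192 to 515, from 29 to 135 and, at 8 months, from 1633 to 2329, and lower Slc22a genes from 9 to 10. Members whose effect differed between ages, 1 as reported, were 2 with the mean of probe sets and 4 with array weights. No call of a member at an age changed sign under the alternatives run. The block lost Abcb1b (adjusted p = 0.0514) and Slc22a17 (adjusted p = 0.215) at 4 months, where same-numbered arrays reached r above 0.1 in 1 of 4 cases. At 2 months it changed no call beside those of Abcc3 and Abcc4. Array weights lost Slc22a27 and Slc22a29 at 8 months, and Slc22a27 was also lost with that age alone. The 4-month Slc22a17 call was lost after quantile normalization. Causes were not tested, except that fewer arrays or genes entered some fits.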
